A study of Mus musculus with 7 samples.

Results

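Of the 21631 protein-coding genes placed on the autosomes and the X chromosome, 10 forkhead genes of endoderm and mesoderm were taken by name: Foxa1, Foxa2, Foxa3, Foxb1, Foxb2, Foxc1, Foxc2, Foxf1, Foxf2 and Foxl1. For each, every called H3K27me3 peak that overlapped the gene body extended by 10 kb on both sides was read from the control list and from the Ring1a/b 2KO list. H3K27me3 is trimethylation of lysine 27 on histone H3, and its positions were read by ChIP-seq in epidermal progenitors from the back skin of newborn mice (postnatal day 0). The cells came from the interfollicular epidermis and were sorted as positive for EpCAM and Sca1 and high for α6-integrin. The groups were control cells and cells of the genotype Ring1a/b 2KO, which lack both Ring1a and Ring1b, each with 2 labelled libraries and 1 list of called peaks. The titles of the 2KO libraries name H3K27me1, whereas their antibody label and the list name H3K27me3. The labels name neither the strain nor the promoter or Cre line behind the deletion, and they do not say whether animals were pooled.

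Forkhead factors bind DNA through a winged-helix domain. The Foxa factors open chromatin in endoderm and its organs and, with Sonic hedgehog, pattern the floor plate of the neural tube. Foxc, Foxf and Foxl1 act in mesoderm and mesenchyme, in vessels, somites and the wall of the gut. Foxb1 and Foxb2 are expressed in the developing nervous system and early mesoderm. In tissues that do not use them, genes of this kind are classical targets of Polycomb. Polycomb repressive complex 2 deposits H3K27me3, and Polycomb repressive complex 1, whose ubiquitin ligases are Ring1a and Ring1b (gene Rnf2), acts on the same chromatin.

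All 10 genes lay within 10 kb of a control peak, and 8 of them also lay within 10 kb of a 2KO peak. The background over all 21631 genes was 14.9% with a control peak, 11.2% with a 2KO peak and 8.90% with both. The 10 genes are short, from 1.51 to 10.3 kb, and among the 7890 genes no longer than the longest of them the share with a control peak was 11.7%. Of all genes with a control peak, 59.8% had a 2KO peak too. Foxb1 and Foxc1 had a control peak and no 2KO peak. The lists give only positions and there is 1 list per genotype, so no comparison here has a replicate error or a test, and read depth is unknown. The mark may be present where no peak was called. These genes and the lists set beside them below were chosen with earlier results of these data known. Their counts are therefore no independent finding.

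The 10 genes lay on 9 control peaks, since Foxc2 and Foxl1 share 1. These peaks measured 4.33 to 39.5 kb with a median of 26.6 kb, against a median of 4.76 kb for all 3631 control peaks. In the 2KO list 11 peaks lay at these genes, of 4.64 to 27.8 kb with a median of 11.6 kb, against 5.51 kb for all 2340. The gene body lay wholly under a control peak at 9 of the 10 genes, compared with 1.40% of all genes. That background holds genes of every length, and only 7890 of the 21631 are no longer than the longest member. A long body is less easily covered whole, and the share was not computed for short genes alone. Only at Foxa3 was the body partly called, over 38.7% of its length. In the 2KO list the body was wholly called at Foxb2, Foxc2 and Foxl1. It was partly called at Foxf1 (91.8%), Foxa2 (74.6%), Foxa1 (63.1%) and Foxa3 (40.0%), and not called at Foxb1, Foxc1 and Foxf2.

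**Figure D1:**
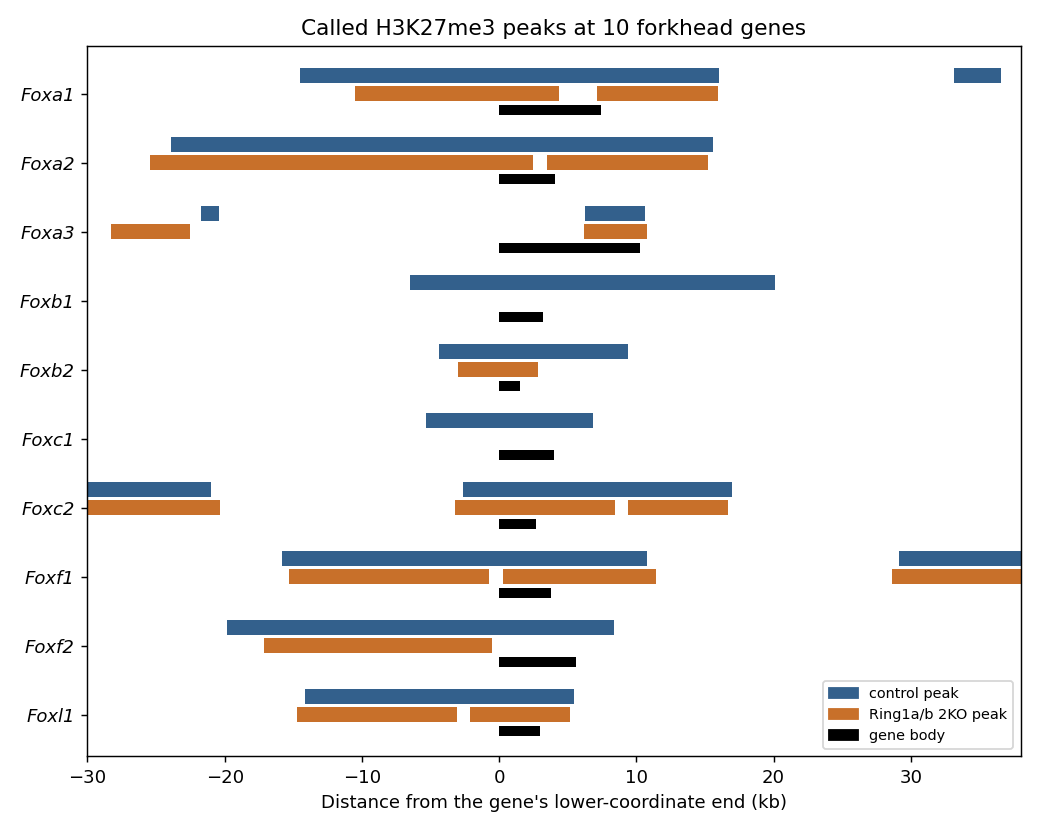
Called peaks around the 10 forkhead genes, with 1 row per gene and the distance from the gene's lower-coordinate end in kb on the horizontal axis. Blue bars are control peaks, orange bars are Ring1a/b 2KO peaks and black bars are gene bodies. The control domain of Foxa1, Foxa2, Foxf1 and the Foxc2 and Foxl1 pair is broken into 2 peaks in the 2KO row, and Foxb1 and Foxc1 have no orange bar.

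Some transcription start sites under control peaks were not called in the 2KO list. A promoter table from RefSeq (build GRCm38.p6, the assembly of mm10) held 8 start sites for 6 of the genes, namely Foxa1, Foxa2, Foxa3, Foxb2, Foxc1 and Foxf2. All 8 lay under a control peak and 5 of these under no 2KO peak. Over all 1577 start sites of protein-coding genes under a control peak, 48.6% were under no 2KO peak, so the count at these genes is near the background. The promoters below run from 250 bases before to 50 bases after a start site, 5′ to 3′ on the gene's strand, and CG dinucleotides, to which CpG-binding subunits of Polycomb complexes can attach, are in capitals. The 4 sequences shown before Foxb2 carry a start site with no 2KO peak. Foxb2 is shown beside them as an example of a start site called in both lists. It had the fewest CG dinucleotides of the 8, and start sites not shown do not follow this contrast.
Foxa1 (chr12:57546062-57546361, minus strand): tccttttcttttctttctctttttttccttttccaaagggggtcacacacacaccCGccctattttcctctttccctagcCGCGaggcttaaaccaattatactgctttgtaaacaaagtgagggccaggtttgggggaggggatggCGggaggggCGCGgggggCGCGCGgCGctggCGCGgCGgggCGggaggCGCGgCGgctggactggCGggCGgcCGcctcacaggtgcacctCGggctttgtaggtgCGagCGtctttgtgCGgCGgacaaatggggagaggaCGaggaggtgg
Foxa2 (chr2:148045899-148046198, minus strand): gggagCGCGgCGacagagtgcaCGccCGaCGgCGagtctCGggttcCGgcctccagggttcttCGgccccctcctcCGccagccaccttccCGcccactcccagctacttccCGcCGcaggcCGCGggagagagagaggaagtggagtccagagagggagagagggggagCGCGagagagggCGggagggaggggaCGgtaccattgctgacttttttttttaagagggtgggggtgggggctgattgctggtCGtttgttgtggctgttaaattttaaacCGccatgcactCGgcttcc
Foxf2 (chr13:31625566-31625865, plus strand): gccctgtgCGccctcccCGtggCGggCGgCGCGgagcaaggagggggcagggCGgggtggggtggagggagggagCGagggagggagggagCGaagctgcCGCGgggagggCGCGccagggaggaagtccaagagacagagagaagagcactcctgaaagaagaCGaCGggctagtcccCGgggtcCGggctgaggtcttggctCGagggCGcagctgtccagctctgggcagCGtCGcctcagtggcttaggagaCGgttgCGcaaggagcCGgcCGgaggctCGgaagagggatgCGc
Foxc1 (chr13:31806396-31806695, plus strand): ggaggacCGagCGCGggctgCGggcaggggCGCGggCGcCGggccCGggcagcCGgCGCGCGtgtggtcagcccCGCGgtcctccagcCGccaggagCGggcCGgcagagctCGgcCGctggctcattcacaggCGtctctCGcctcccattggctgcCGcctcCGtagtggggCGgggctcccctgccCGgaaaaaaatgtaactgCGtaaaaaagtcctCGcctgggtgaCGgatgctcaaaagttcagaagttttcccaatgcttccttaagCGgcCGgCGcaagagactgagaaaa
Foxb2 (chr19:16873781-16874080, minus strand): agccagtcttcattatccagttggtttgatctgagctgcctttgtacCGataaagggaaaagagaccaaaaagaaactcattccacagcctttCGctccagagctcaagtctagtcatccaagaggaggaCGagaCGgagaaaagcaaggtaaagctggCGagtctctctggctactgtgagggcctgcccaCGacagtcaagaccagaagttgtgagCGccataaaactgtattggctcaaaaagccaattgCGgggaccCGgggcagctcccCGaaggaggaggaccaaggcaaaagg

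These 300 bases held 26 CG dinucleotides at Foxa1, 23 at this start site of Foxa2, 27 at Foxf2 and 32 at Foxc1. Foxb2 held 10. Among 32609 promoters of the table the median was 7, and Foxc1 had more than 90.4% of them. This set and those below come from the whole promoter table. They were not limited to protein-coding genes, unlike the 1577 start sites above. The remaining start sites ran across this division: Foxa3 (22 CG dinucleotides) and the outermost of Foxa2 (12) were called in both lists, and a further start site of Foxa2 (13) in the control list only. Over all promoters whose start site lay under a control peak only, the median was 19 (1076 promoters), and over those under peaks of both lists it was 14 (1126 promoters). The forkhead recognition motif GTAAACA, searched on both strands, was found in the Foxa1 promoter and in no other of the 8, against 3.67% of all promoters in the table.

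Foxa1 and Foxa2 encode pioneer factors of liver, lung and gut endoderm. The control peak of Foxa2 (chromosome 2, 148018952 to 148058467, 39.5 kb) was the widest of the 9 and ranked 30 of 3631 by width. In the 2KO list it was met by peaks of 27.8 kb (148017474 to 148045321) and 11.7 kb (148046363 to 148058110). Their outer edges lay 1478 bp outside and 357 bp inside the control edges, so that 96.5% of the control peak stayed called. Besides those 357 bp at the edge, what was missing was a gap of 1041 bp inside the gene body (148042877 to 148046969). That gap held 2 of the 3 start sites of Foxa2, at 148045464 and 148045948. The outermost start site, 148046969, lay under the second 2KO peak.

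Foxa1 showed the same arrangement with a wider gap. Its control peak (chromosome 12, 57526107 to 57556643, 30.5 kb, rank 69) was met by 2KO peaks of 14.9 kb (57530156 to 57545026) and 8.80 kb (57547755 to 57556558). The gap of 2728 bp held the start site at 57546111, which lay 1085 bp from the nearest 2KO base. It was the widest of the 4 gaps at these genes. At the lower-coordinate edge the 2KO call began 4049 bp inside the control peak, and at the other edge the lists differed by 85 bp. The peak was covered to 77.5%. It also reached into Ttc6, a tetratricopeptide repeat gene that overlaps Foxa1 (9940 bp under the control peak, 8804 bp of it under 2KO peaks).

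Foxa3, the third liver-enriched Foxa factor, carried the narrowest of these peaks. The control peak (chromosome 7, 19019566 to 19023900, 4335 bp) ranked 2028 of 3631 and lay over the start site and the adjoining part of the body. The 2KO peak (19019437 to 19024077, 4641 bp) exceeded it by 129 and 177 bp at its edges. Here the start site at 19023539 was called in both lists. The 3 Foxa genes thus kept 77.5 to 100% of their control peaks, and the 2 wide domains were the ones that broke.

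Foxf1, Foxc2 and Foxl1 lie close together on chromosome 8 and lay under 2 control domains. Foxf1 is required for lateral mesoderm and lung vessels, Foxc2 for lymphatic valves, and Foxl1 marks mesenchyme beneath the gut epithelium. The control peak of Foxf1 (121068584 to 121095155, 26.6 kb) also covered 14527 bp of Fendrr, the long noncoding RNA gene beside it, and 3528 bp of Mthfsd, a gene between Foxf1 and Foxc2. The 2KO list held 121069042 to 121083663 (14.6 kb) and 121084695 to 121095799 (11.1 kb) at that place. Outer edges lay within 458 and 644 bp of the control edges, and 94.4% of the control peak stayed called. The gap of 1031 bp held the lower-coordinate end of Foxf1 (121084386). The strand of Foxf1 is not in the tables used, so this end is not called its start here.

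The control peak over Foxc2 and Foxl1 (121113538 to 121133156, 19.6 kb, rank 195) was covered to 93.7%. Its 2KO peaks measured 11.6 kb (121112988 to 121124632) and 7.29 kb (121125553 to 121132837), with outer edges 550 and 319 bp from those of the control. The gap of 920 bp was the shortest of the 4, and it was the only one outside a member gene, 2132 bp from the nearest end of Foxl1. Both gene bodies stayed wholly called. On this chromosome the 2 lists therefore placed the outer edges of the domains within 1 kb of each other at all 4 edges.

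Foxf2 and Foxc1, the paralogs on chromosome 13, had part of a domain and no domain in the 2KO list. Foxf2 acts in palate and gut mesenchyme and in brain pericytes, and Foxc1 in somites, eye and skull. The control peak of Foxf2 (31605965 to 31634174, 28.2 kb, rank 85) was met by a single 2KO peak of 16.6 kb (31608695 to 31625337) that covered 59.0% of it. This 2KO peak ended 479 bp short of the start site at 31625816. None of the 5591 bp of the gene body was called, although the control peak ran through all of it. Foxc1 (31806646 to 31810635) lay under a control peak of 12.2 kb (31801352 to 31813522, rank 420). The nearest 2KO peak was that of Foxf2, 181 kb away. Foxq1, a forkhead gene on the same chromosome (31558170 to 31560976), was named after its values were seen. It had 15.1 kb under control and 14.6 kb under 2KO peaks within 10 kb, with 96.5% of the control-called length kept.

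Foxb1 and Foxb2 are best known from the midbrain, hypothalamus and spinal cord. Foxb1 lay under a control domain (chromosome 9, 69751211 to 69777803, 26.6 kb, rank 100) that also covered 16658 bp of the noncoding gene B230323A14Rik and all 2716 bp of Gm31530. The nearest 2KO peak lay 1449133 bp from the gene, so the whole domain was uncalled. Foxb2 (chromosome 19, 16872316 to 16873830) kept a narrower domain. The control peak measured 13.7 kb (16867965 to 16881712) and the 2KO peak 5829 bp (16869298 to 16875126), which is 42.4% of it. The 2KO peak still held the whole body and the start site at 16873830, and it fell short of the control edge by 6586 bp on the upstream side and 1333 bp on the downstream side.

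Within each paralog pair the outcome differed. Foxb2 kept 42.4% of its control peak and Foxb1 0%. Foxc2 kept 93.7% and Foxc1 0%. Foxf1 kept 94.4% and Foxf2 59.0%. Control width did not order them, as the peaks of Foxb1 and Foxf1 were both 26.6 kb wide. With 1 list per genotype these differences between genes have no error estimate.

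**Figure D2:**
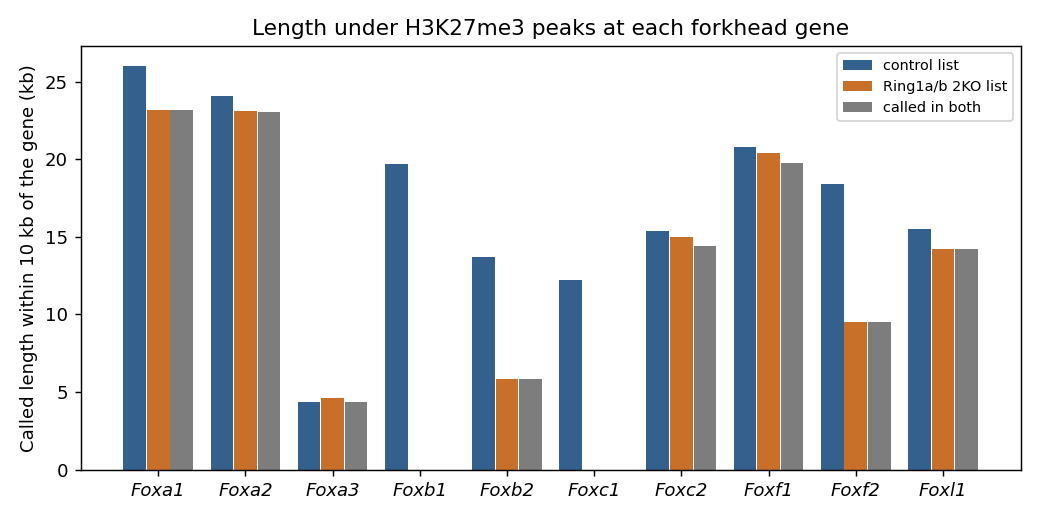
Length under called peaks within 10 kb of each gene body, in kb, in the control list (blue), in the Ring1a/b 2KO list (orange) and in both (grey). Foxa1, Foxa2, Foxa3, Foxc2, Foxf1 and Foxl1 have bars of similar height, Foxf2 and Foxb2 have shorter 2KO bars, and Foxb1 and Foxc1 have a control bar only.

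Within 10 kb of the genes, counted once where windows meet, 159 kb lay under control and 106 kb under 2KO peaks. Of the control-called length 65.5% was also called in the 2KO list, and of the 2KO-called length 98.6% was called in the control list. Over the genome these shares were 47.5 and 72.1%. The 72.1% is no matched background, since every one of these genes had a control peak and the peaks there were mostly wide. Of all 2340 2KO peaks 1792 were met by a control peak, and of the 405 of 10 kb or more 402 were. The median length called in control per gene was 16.9 kb, of which a median of 90.6% was kept. Over all genes with a control peak those medians were 5.21 kb and 52.7%. Since control peaks of 10 kb or more kept 53.2% of their length over the genome, the 8 such peaks at these genes were also set beside the 562 of the whole list. The median share kept was 68.3% over the 8 and 58.7% over the 562, a smaller distance than between the medians per gene. By count, 2 of the 8 had no 2KO peak, and 174 of the 562 (31.0%) had none, so that share was near the background.

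**Figure D3:**
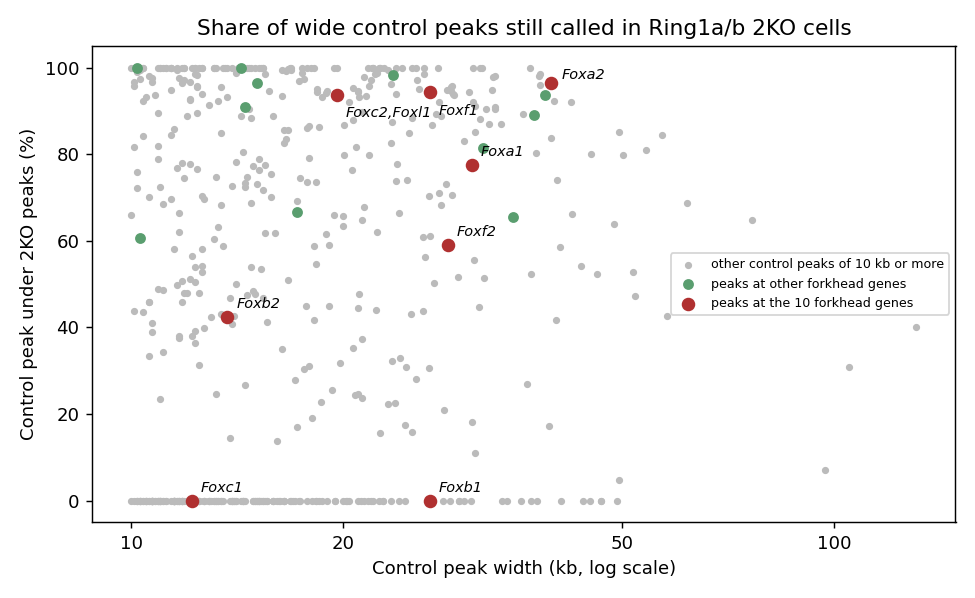
Each point is a control peak of 10 kb or more, with its width in kb on a log axis and the percentage of its length under 2KO peaks. Red points are the 8 such peaks at the 10 forkhead genes, green points those at other forkhead genes and grey points all others. The red points reach from 0% at Foxb1 and Foxc1 to 96.5% at Foxa2, across the range of the grey points.

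The breaks into separate 2KO peaks were set beside those of other wide domains. Of the 6 control peaks at these genes of 10 kb or more that were met by a 2KO peak, 4 were met by 2 separate ones. Genome-wide this held for 86 of 388 (22.2%). The share rose with width, from 9.05% of the 232 peaks between 10 and 20 kb to 41.7% of the 156 of 20 kb or more, and 3 of the 4 split peaks here were of the wider class. When 2KO peaks within 3 kb of each other were joined, none of the 4 was split, since every gap was shorter than that.

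Gaps at start sites also occurred away from the forkhead genes. Split control peaks of the genome were read on the 19 chromosomes with start sites in the promoter table, those of the forkhead genes included. In them 46 of 88 start sites (52.3%) lay in gaps, whereas gaps made up 13.9% of the bases. Most gaps held no start site of that table, which does not cover every gene. By gap, 39 of 115 (33.9%) held one, and 28 of the 85 gaps under 3 kb (32.9%) did. In the reverse direction, among 2KO peaks met by 2 or more control peaks, 1 of 31 start sites (3.23%) lay in a gap of the control list, with 12.5% of the bases. Of the 309 start sites in control peaks of 10 kb or more met by a 2KO peak, 29.8% were under no 2KO peak. In the same class, 4 of the 6 start sites of Foxa1, Foxa2, Foxb2 and Foxf2 were under none. Several of the 6 belong to Foxa2, with 2 in the same gap, so they are not separate observations. By gene, the start sites of Foxa1 and Foxf2 were uncalled, that of Foxb2 was called and those of Foxa2 differed. By distance, the share of control-called positions also called in the 2KO list was 82.2% at 1 kb upstream, 70.2% at the start site and 75.9% at 1 kb downstream. Farther out it fell again, to 65.2% at 8 kb upstream and 69.3% at 8 kb downstream. For 2KO-called positions the share called in the control list was 96.8, 98.4 and 98.0% at 1 kb upstream, the start site and 1 kb downstream, and 72.0 and 80.9% at 8 kb to either side. Each direction selects peaks that are wide in its own list.

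**Figure D4:**
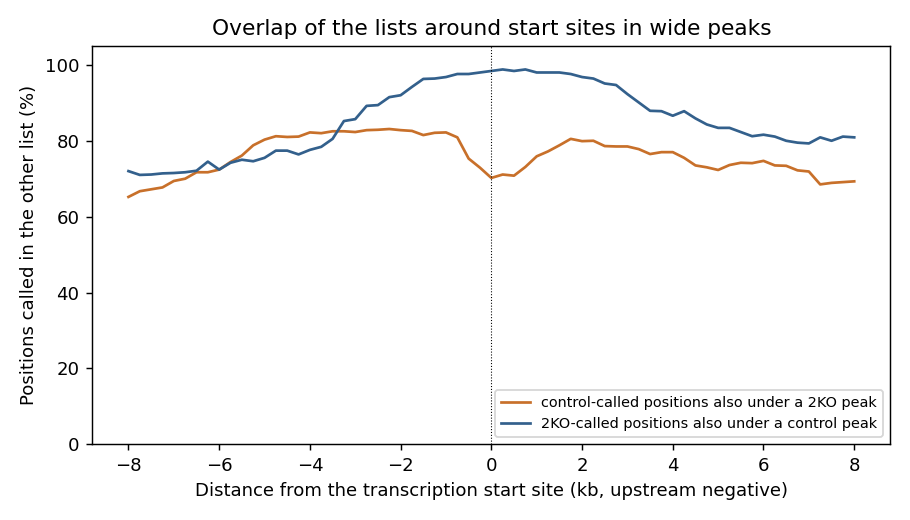
Percentage of called positions that were also called in the other list, by distance from the start site in kb, for start sites in peaks of 10 kb or more met by the other list. The orange line (control-called positions also under a 2KO peak) dips to 70.2% at the start site and falls again towards 8 kb (65.2% upstream and 69.3% downstream). At the start site the blue line (2KO-called positions also under a control peak) stands at 98.4%.

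The rest of the forkhead family was read in the same way. Of 34 genes, 16 had a control peak within 10 kb and 15 of these a 2KO peak, with 219 kb under control peaks and 82.0% of it kept. Foxd2 and Foxe3 share a control peak of 37.4 kb and kept 88.9 and 84.5% of the control-called length within 10 kb, and Foxd1, a factor of kidney stroma, had one of 34.9 kb and kept 83.0%. Foxo1, an effector of insulin signalling, had a control peak of 5.85 kb and no 2KO peak.

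Of 18 endoderm factors that act before, beside or after the Foxa genes, 15 had a control peak and 14 a 2KO peak as well. Nkx2-1 (100%), Onecut1 (97.2%) and Cdx2 (91.1%) kept most of their control-called length, and Gata4 kept 52.7% of 51.7 kb. Gsc, an organizer homeobox gene with a 16.8 kb control peak, had no 2KO peak. Of 20 mesoderm factors, 15 had a control peak and 14 both, and 61.1% of the called length was kept, against 75.3% for the endoderm list. Hand2 and Nkx3-2 kept 100 and 97.4%, Tbx18 67.0% and Pax9 50.8%, while Tbx1 (14.5 kb) had no 2KO peak. In the Hedgehog pathway, which controls Foxa2 in the floor plate and Foxf1 and Foxl1 in the gut wall, 5 of 10 genes had a control peak. The ligand genes Ihh, Shh and Dhh kept 99.5, 98.7 and 90.5%, whereas the targets Hhip (9.13 kb) and Gli1 (2.34 kb) had a control peak only.

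Genes with the pattern most like a member were taken by the sum of the absolute log2 differences of control-called and 2KO-called length (plus 1 kb) over the 2 lists. Closest to Foxa1, with 26.0 kb under control and 23.2 kb under 2KO peaks, were En2 (26.0 and 23.7 kb, sum 0.033), Cdx2 (26.4 and 24.0 kb, 0.065) and Vax2 (25.8 and 22.0 kb, 0.087). Closest to Foxb1, with 19.7 kb and no 2KO call, were Gm960 (19.7 kb, 0.0031), Tafa5 (20.2 kb, 0.033) and Osr2 (20.4 kb, 0.043). The measure reads lengths alone and not where in the window a peak lies.

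None of 8 basal epidermal genes (Krt5, Krt14, Trp63, Itga6, Itgb4, Col17a1, Ly6a and Epcam) had a peak of either list within 10 kb. With 14.9% of all genes near a control peak and 11.2% near a 2KO peak, so low a count in a short list says little about the sorted cells. Markers of other cells that a sort could hold had a control peak at 4 of 5 Merkel cell, 4 of 5 dermal fibroblast, 2 of 4 melanocyte, 1 of 4 endothelial and 0 of 3 immune genes. The 2KO list had a peak at 3, 3, 1, 1 and 1 of them in the same order. The immune gene was Cd207, a marker of Langerhans cells of the epidermis, with 10.2 kb under a 2KO peak and no control peak within 10 kb. How far such cells contribute to the peaks at the forkhead genes was not tested.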

How the data were processed

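The submitters' processing notes name Bowtie2 2.3.3.1, SAMtools 1.9 and the build mm10. For each genotype the authors deposited 1 peak list that holds chromosome, start and end alone, per the file headers, without any height, score or p-value. Not given in the sources used here are the peak caller, its threshold, its rule for joining close peaks, and whether input was used or replicates pooled. Such a rule could open or close the gaps described. Positions are printed 1-based, taking the deposited starts as 0-based. Input libraries and those of Eed cKO cells were not analysed here. Gene positions and promoters came from RefSeq tables (GRCm38.p6), and start sites from the promoter table, which covered 17274 protein-coding genes. A peak met a window or another peak at 1 bp or more. Overlaps, called lengths and gaps were computed with pandas 2.3.3 and numpy 2.4.6 (Python 3.11.15) and checked on a simulated list. Figures were drawn with matplotlib 3.10.9. Genes named beside the 10 were those on their peaks, up to 4 per list and class at the widest control peaks, and the 3 most alike for Foxa1 and Foxb1. Of the genes this rule names, 1 is not reported here. The members and lists were chosen with earlier results of these data known. Alternatives covered the window, the overlap, the peaks used and the joining of close peaks, the last also at 1 kb, which was chosen after seeing the data.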

Additional observations from a re-analysis of the deposited data

How the results depend on the processing

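No paired analysis was possible because the 2 libraries of a genotype stand behind a single list, so no library could be left out either. The number of the 10 genes with a control peak was 10 under all 9 other settings, and that with both lists was 8, or 7 with no window, where the 2KO peak of Foxf2 lies outside the gene. The share of their control-called length under 2KO peaks (65.5%) was 57.0, 59.9, 62.0, 64.9 and 63.7% with windows of 0, 1, 5, 20 and 50 kb. It was 57.7% with 50% of a peak required in the window and 69.1% with peaks within 3 kb joined. The background share of genes with a control peak (14.9%) was 11.2, 11.7, 13.3, 18.0 and 26.3% with these windows, 13.9% with 50% required, 10.4% with equal numbers of the widest peaks and 12.0% with peaks of at least 3 kb. That with both lists (8.90%) was 6.24, 6.66, 7.84, 11.0, 17.0, 8.03, 7.19 and 7.53% in the same order. With peaks within 3 kb joined, 0 control peaks at the genes were met by 2 or more 2KO peaks, 2 start sites of the genes lay under a control peak and no 2KO peak, and 40.0% of start sites in split control peaks of the genome lay in gaps. With joining within 1 kb these were 3, 5 and 50.5%. The gap at Foxc2 and Foxl1 closed at that distance. These start-site counts were set up after seeing the data. All 72 reruns of the other gene lists stayed within 1.5 times the main count. By gene, the kept share stayed at 0% for Foxb1 and Foxc1 and reached from 0 to 59.0% for Foxf2, 42.4 to 100% for Foxb2 and 44.0 to 100% for Foxa2. Depth is not recorded in the lists, and how it limits the calls is unknown.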
